A study of Mus musculus with 33 samples.

Results

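The genes described here are 33 genes of cholesterol and fatty acid synthesis and its control, measured in colonic regulatory T cells (Treg) of mice. They were found by symbol through the Ensembl identifiers of a count table of 53465 genes, and all 33 were present. By role they are 18 sterol synthesis enzymes, 6 genes of SREBP control and sterol transport, 4 genes of the liver X receptors (LXR) and cholesterol efflux, and 5 genes of fatty acid synthesis. The 33 genes were chosen by their known function, and all 33 passed the low-count filter in each comparison.

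Treg came from Foxp3-yfp B6 mice, in which a yellow fluorescent reporter marks cells that express Foxp3; the Foxp3YFP-cre strain was bought as animals of 7 to 12 weeks, and no source used here states the age at sampling. Mice 1 to 4 were naive. Mice 5 to 8 had colitis-associated cancer, set off by 1 injection of the carcinogen azoxymethane (10 mg/kg) and 3 cycles of dextran sodium sulfate, each with 7 days of the agent in drinking water, and were killed 2 weeks after the last treatment. No group received either agent alone, so carcinogen, colitis and tumour cannot be told apart. From each mouse 4 gates of CD45+TCR+CD4+Foxp3+ cells were sorted by TSLPR, the receptor of thymic stromal lymphopoietin, and ST2, the receptor of interleukin 33, which gave 8 groups of 4 libraries. A library held 200 cells, amplified as full-length cDNA and read as 58-base single reads. In such bulk samples, fewer cells of a type and less RNA per cell cannot be told apart. There was also 1 library of CD44low Foxp3-negative naive T cells.

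Cells make cholesterol from acetyl-CoA through the mevalonate pathway, which the enzymes here follow from Hmgcs1 to Dhcr7. The transcription factors SREBP-2 (gene Srebf2) and SREBP-1 (gene Srebf1) switch on these enzymes and those of fatty acid synthesis when membrane sterol is low: the escort protein Scap carries them to the Golgi, and Insig1 and Insig2 hold them back in the endoplasmic reticulum. When sterols are plentiful, oxysterols activate LXR-beta (Nr1h2) and LXR-alpha (Nr1h3), which induce the exporters Abca1 and Abcg1 as well as Srebf1. Activated and dividing T cells draw on both synthesis routes, and in Treg the mevalonate pathway is known to be needed for suppressive function.

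The 32 Treg libraries held 4038718 to 8839946 counts each, and the cancer TSLPR+ST2+ libraries (4038718 to 5816224) lay below the naive ones of that gate (6607867 to 8839946). Crlf2, which encodes TSLPR, was higher in the TSLPR+ than in the TSLPR- library in 8 of 8 mice among ST2- cells and in 7 of 8 among ST2+ cells. Cancer mouse 5 was the exception, with Crlf2 at 30.5 CPM (counts scaled to the library total) in the library labelled TSLPR-ST2+ and 25.2 CPM in the library labelled TSLPR+ST2+. In the TSLPR+ST2+ library of cancer mouse 7 the summed level of 11 epithelial markers was 13334 CPM, against at most 548 CPM in the other 31 libraries. Mitochondrial transcripts took 0.775% to 1.15% of counts in the naive mice and 1.39% to 1.88% in the cancer mice. The calls made among the 33 genes are given with and without the libraries of mice 5 and 7 named here.

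Treg expressed the whole route, at levels that ranged widely. Divided by the summed length of annotated exons, the mean level over the 32 libraries was highest for Ebp, the sterol isomerase late in the pathway, at 59.4 CPM per kilobase. Next came Nr1h2 (37.8 CPM per kilobase), Mvd (29.1), which decarboxylates mevalonate diphosphate, and Sc5d (27.5), the lathosterol desaturase. The lowest levels per kilobase were those of Scd1 (0.931), the stearoyl-CoA desaturase, Acaca (0.524), the acetyl-CoA carboxylase, and Fdps (0.370), the farnesyl diphosphate synthase. Among annotated GRCm38 transcripts, 62.1% of the 58-base windows of Fdps and 47.5% of those of Acaca also occur in other genes, and for Acat2, Fdft1 and Idi1 the share was 39.0%, 28.7% and 27.9%. Counts of these 5 genes are therefore uncertain, since no source used here states how reads with several matches were counted. For Fasn, Mvd, Srebf2, Ebp, Pmvk and Nr1h3 no window was shared.

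The 18 sterol enzymes, summed per kilobase, are given as a description of the 8 groups, with no test. In the naive groups the median library lay between 208 CPM per kilobase (TSLPR-ST2-) and 235 (TSLPR+ST2-). In the cancer groups it lay between 192 (TSLPR+ST2-) and 230 (TSLPR-ST2+). In TSLPR+ST2- Treg the ranges did not overlap, with 172 to 209 CPM per kilobase in cancer and 216 to 256 in naive libraries. They overlapped in the other 3 gates, where TSLPR-ST2- Treg had 141 to 216 in cancer and 201 to 217 in naive libraries. The highest single library, at 357 CPM per kilobase, was the TSLPR+ST2+ library of cancer mouse 7 with the high epithelial markers.

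The naive T cell library set the Treg levels in relation to a T cell without Foxp3. It lay below all 16 naive Treg libraries for 5 genes, above all of them for 2 and within their range for 26. Ebp was at 58.7 CPM (95% Poisson interval 53.2 to 64.6, counting error only) against 97.1 to 181 CPM in naive Treg. Sc5d was at 95.9 CPM (88.8 to 103) against a lowest naive Treg value of 114 CPM, and Mvd at 32 CPM (28.0 to 36.4) against 39.0 CPM. The others below were Scap and the desaturase gene Scd2. The interval of Scd2, 7.17 to 11.8 CPM, reached into the naive Treg range, which began at 11.4 CPM. The 2 genes above the Treg range were Lss, the lanosterol synthase, at 38.3 CPM (33.9 to 43.1) and Acat2, the acetoacetyl-CoA thiolase, at 56.1 CPM. The interval of Acat2, 50.8 to 61.9 CPM, reached into the naive Treg range, which ended at 52.2 CPM, and its counts are uncertain because of shared windows. This is 1 library with no replicate and no test.

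Promoters are shown for Fasn, Mvd, Sc5d, Srebf2 and Ebp, whose levels differ below. Hmgcs1, the enzyme that makes HMG-CoA, is added as the reference case of an SREBP site. Pmvk and Nr1h3 also differ below but are not printed, and Scd1 had no promoter entry. The sequences are those of RefSeq on GRCm38.p6, 5′ to 3′ on the gene's strand, up to 250 bases before the annotated start and cut before the gene's own first exon. Capitals mark the CCAAT box, on either strand, of the factor NF-Y, which works together with SREBP at many sterol genes. They also mark TCACNCCAC, a form of the sterol regulatory element, and the shorter ATCACCC, which is not part of TCACNCCAC and was searched separately. Positions count back from the base before the RefSeq start, which is -1. In Srebf2 the 88 bases next to that start are exon in GENCODE M21 and are not printed, so its printed sequence ends before them.
Fasn, chr11:120824548-120824797, minus strand: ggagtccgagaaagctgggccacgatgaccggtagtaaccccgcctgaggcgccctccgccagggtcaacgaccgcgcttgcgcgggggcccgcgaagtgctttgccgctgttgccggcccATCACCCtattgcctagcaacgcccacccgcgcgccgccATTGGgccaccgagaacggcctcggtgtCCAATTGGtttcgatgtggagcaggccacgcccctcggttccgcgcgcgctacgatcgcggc
Mvd, chr8:122443423-122443672, minus strand: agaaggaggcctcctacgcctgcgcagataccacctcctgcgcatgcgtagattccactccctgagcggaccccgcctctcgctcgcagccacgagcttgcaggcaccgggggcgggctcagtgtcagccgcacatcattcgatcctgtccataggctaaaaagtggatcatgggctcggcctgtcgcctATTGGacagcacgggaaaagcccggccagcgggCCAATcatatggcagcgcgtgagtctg
Sc5d, chr9:42264301-42264550, minus strand: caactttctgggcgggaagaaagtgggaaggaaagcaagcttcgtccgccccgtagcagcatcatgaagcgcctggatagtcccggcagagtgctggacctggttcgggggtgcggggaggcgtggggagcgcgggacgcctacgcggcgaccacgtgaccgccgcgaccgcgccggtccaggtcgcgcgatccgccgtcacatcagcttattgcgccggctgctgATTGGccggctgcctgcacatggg
Srebf2, chr15:82147019-82147180, plus strand: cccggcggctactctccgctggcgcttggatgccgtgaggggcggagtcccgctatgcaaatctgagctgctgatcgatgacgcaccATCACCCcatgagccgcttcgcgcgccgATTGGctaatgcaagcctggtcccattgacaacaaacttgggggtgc
Ebp, chrX:8193513-8193762, minus strand: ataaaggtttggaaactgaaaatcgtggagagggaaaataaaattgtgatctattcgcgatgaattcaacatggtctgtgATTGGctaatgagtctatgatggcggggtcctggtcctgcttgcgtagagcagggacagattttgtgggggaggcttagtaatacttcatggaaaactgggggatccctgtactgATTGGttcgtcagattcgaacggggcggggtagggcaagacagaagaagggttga
Hmgcs1, chr13:119690101-119690350, plus strand: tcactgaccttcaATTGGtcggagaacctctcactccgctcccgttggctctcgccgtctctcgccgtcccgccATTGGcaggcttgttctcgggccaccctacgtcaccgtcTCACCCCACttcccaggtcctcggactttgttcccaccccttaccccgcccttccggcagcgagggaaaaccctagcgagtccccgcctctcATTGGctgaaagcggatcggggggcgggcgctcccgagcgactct

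None of these 6 windows overlaps an annotated exon of another gene in GENCODE M21. Promoter entries matched 26 of the 33 genes. In the 250 bases before the start, on either strand, CCAAT was found in 19 of 26, and in 14 of the 15 sterol enzymes with an entry, against 37.5% of the 27025 genes searched. TCACNCCAC was found in Hmgcs1 alone, starting at -137, against 1.22% of genes. ATCACCC, searched after the promoters had been read, starts at -129 in Fasn, at -163 in Srebf2 and at -206 in Nsdhl, a late sterol dehydrogenase, against 2.62% of genes. It does not overlap the CCAAT boxes. The GC box GGGCGG was present in 20 of 26 against 35.4% of genes, and the E-box CACGTG in 6 of 26 against 6.86%. Of the genes that differ below but are not printed, Pmvk held CCAAT alone, at -136, and Nr1h3 held none of these motifs. A match is a match of letters and not a measured site.

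Colitis-associated cancer was compared with the naive state first over whole mice, with the 4 gates of a mouse summed. Fatty acid synthase fell most clearly, and 2 of the 18 sterol enzymes fell less, while no gene of SREBP control or LXR efflux passed the test. In all 3 of the 33 genes fell and none rose, at an adjusted p under 0.05 by edgeR's quasi-likelihood test; of all 15338 genes tested, 1.21% passed, 0.926% lower and 0.287% higher. In 5 of the 33 genes the 2 sets of 4 mice did not overlap, against 11.3% of all genes (5.53% higher and 5.8% lower): Fasn, Mvd, Sc5d and Fdps were lower and Abca1 higher.

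Fasn, which builds palmitate from malonyl-CoA, was at 65.1, 65.6, 90.4 and 73.4 CPM in naive mice 1 to 4 and at 41.7, 41.8, 40.1 and 37.6 CPM in cancer mice 5 to 8. Every cancer mouse lay below every naive mouse, and the cancer mice lay close together. The log2 fold change was -0.87 (standard error, SE, 0.12, n = 4 and 4, edgeR adjusted p = 0.0174). Mvd was at 65.4, 71.6, 67.3 and 60.3 CPM in the naive and at 45.0, 44.5, 40.2 and 38.3 CPM in the cancer mice. The groups were again apart, at -0.66 on the log2 scale (SE 0.10, edgeR adjusted p = 0.0231). Sc5d was at 163, 141, 150 and 151 CPM in the naive and at 125, 119, 107 and 114 CPM in the cancer mice. The log2 fold change of Sc5d was -0.38 (SE 0.08, edgeR adjusted p = 0.0499), and its groups did not overlap.

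These calls depended on single mice. Without any 1 of the 8 mice, Sc5d missed the threshold (edgeR adjusted p up to 0.127); Mvd missed it without mouse 1, 2, 4, 6, 7 or 8 (up to 0.0707) and Fasn without mouse 4, 6, 7 or 8 (up to 0.0657). The number called was 0 without mouse 4, 6, 7 or 8, 1 without mouse 1 or 2 and 2 in the remaining cases. Without the epithelial-rich library of mouse 7, Fasn had -0.84 (edgeR adjusted p = 0.0212) and Mvd -0.74 (adjusted p = 0.0350), while Sc5d missed the threshold at -0.41 (adjusted p = 0.0586). Without the 2 libraries of mouse 5 all 3 passed, at -0.94 for Fasn (adjusted p = 0.0205), -0.74 for Mvd (adjusted p = 0.0251) and -0.43 for Sc5d (adjusted p = 0.0363). With the mitochondrial share as a covariate none passed: the log2 fold change was -0.51 for Fasn, -0.67 for Mvd and -0.37 for Sc5d. This share did not overlap between naive and cancer mice, and its part in the differences was not tested.

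**Figure D1:**
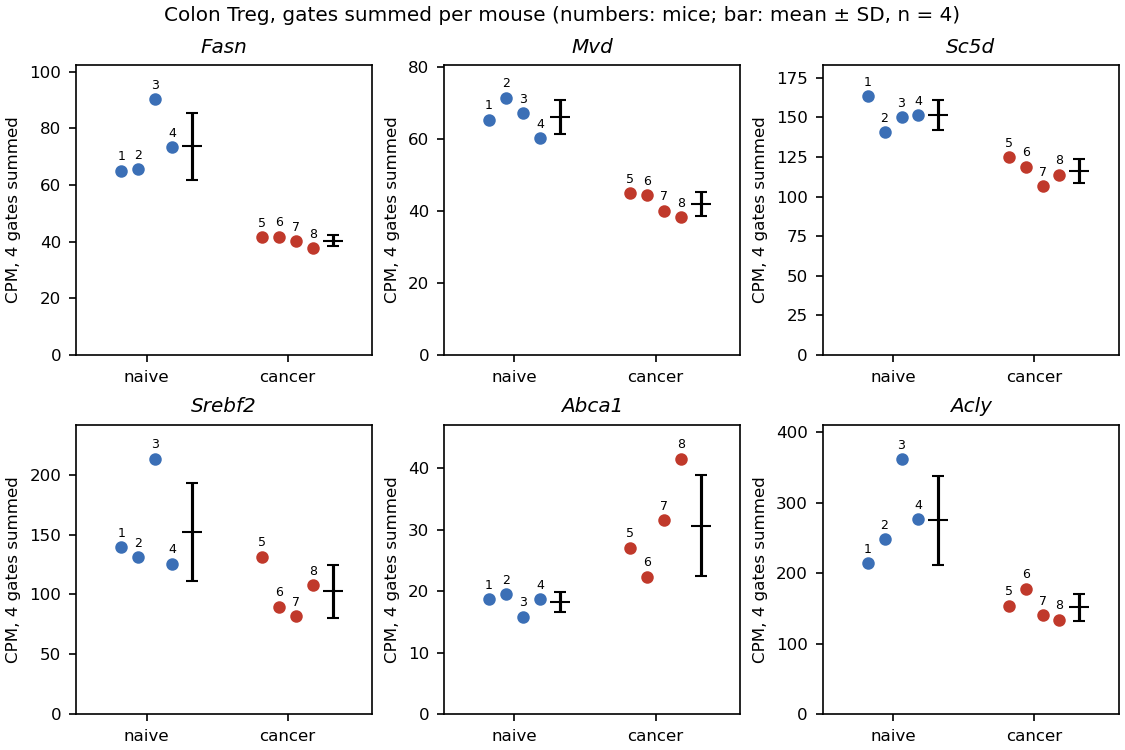
CPM of 6 genes in Treg summed over the 4 gates of a mouse, in naive (blue, mice 1 to 4) and cancer mice (red, mice 5 to 8); the bars at the side are mean ± SD, n = 4. Fasn, Mvd, Sc5d and Acly are lower in every cancer mouse than in any naive mouse, Abca1 is higher in every cancer mouse, and Srebf2 overlaps between the groups.

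The remaining 16 sterol enzymes moved in both directions. Over all 18, 7 log2 fold changes were above 0 and 11 below, and the median was -0.08, against 0.01 over all genes tested. The lowest was that of Fdps, at -1.09 (SE 0.41, edgeR adjusted p = 0.218), where mean levels were 2.06 ± 0.222 (SD, n = 4) CPM in naive and 0.964 ± 0.185 CPM in cancer mice. The highest was that of Tm7sf2, a sterol reductase, at 0.28 (SE 0.26). Ebp, the enzyme with the highest level, was at 134 ± 8.27 CPM in naive and 140 ± 11.8 CPM in cancer mice, a log2 fold change of 0.06 (SE 0.08). Pmvk, the kinase before Mvd, had 0.02 (SE 0.15), and Mvk, the kinase before that, -0.01 (SE 0.17).

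Of the 6 genes of SREBP control and sterol transport, 5 had log2 fold changes below 0 and none passed; the median was -0.33. Srebf2 was at 140, 131, 213 and 126 CPM in the naive and at 132, 89.6, 81.9 and 108 CPM in the cancer mice. Naive mouse 3 stood well above the rest, and cancer mouse 5 lay inside the naive range. The fitted log2 change was -0.57 (SE 0.20, edgeR adjusted p = 0.186). Srebf1 had the same log2 fold change, -0.57 (SE 0.29, edgeR adjusted p = 0.355), and Insig1 had -0.65 (SE 0.27, edgeR adjusted p = 0.257). Insig2 had 0.16 (SE 0.09), Scap -0.05 (SE 0.14) and Stard4, a carrier of cholesterol between membranes, -0.09 (SE 0.22).

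The LXR and efflux genes gave 2 values above 0 and 2 below. Abca1, which exports cholesterol to lipid-poor apolipoproteins, was at 18.7, 19.5, 15.8 and 18.7 CPM in the naive and at 27.0, 22.3, 31.5 and 41.5 CPM in the cancer mice. All cancer mice were higher, but they also spread more widely. On the log2 scale the difference was 0.75 (SE 0.20), and it did not pass by edgeR (adjusted p = 0.101), while it did by DESeq2 (adjusted p = 0.00825). Abcg1, the partner exporter, had -0.50 (SE 0.22, edgeR adjusted p = 0.282), Nr1h2 -0.10 (SE 0.09) and Nr1h3 0.10 (SE 0.47). Abca1 and Abcg1 thus had fitted changes of opposite sign, neither past the threshold in this test.

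Beside Fasn, the other fatty acid genes were near 0 or poorly measured. Scd2 had a log2 fold change of 0.02 (SE 0.21) and Elovl6, which lengthens palmitate, -0.02 (SE 0.24). Acaca, whose counts are uncertain, had 0.28 (SE 0.32).

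**Figure D2:**
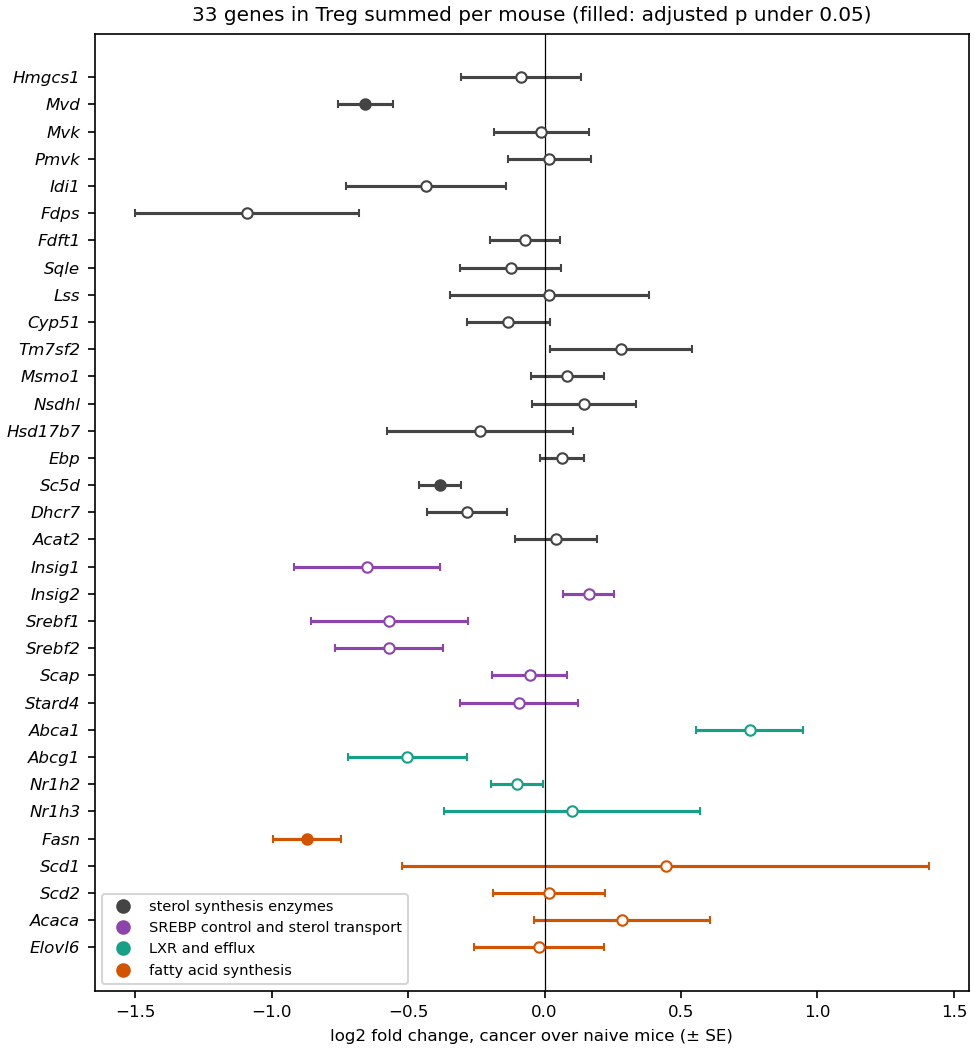
Log2 fold change of each of the 33 genes between cancer and naive mice (x axis, ± SE), with genes in rows and roles in colour; filled points have an edgeR adjusted p under 0.05. Mvd, Sc5d and Fasn are filled and lie left of 0, Fdps lies farthest left with a wide error, and Abca1 lies farthest right of the SREBP and LXR genes.

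Neighbouring pathways, counted by lists of their own, held few calls over whole mice. ATP citrate lyase (Acly), which supplies the acetyl-CoA used by both routes, fell: it was at 214, 248, 362 and 277 CPM in the naive and at 154, 178, 140 and 134 CPM in the cancer mice. Its log2 fold change was -0.86 (SE 0.16, edgeR adjusted p = 0.0357), and it was the 1 gene of 10 further fatty acid synthesis genes tested that passed, 9 of which lay below 0. Acly missed the threshold without mouse 2, 4, 5, 6, 7 or 8 (adjusted p up to 0.11) and had -0.33 (adjusted p = 0.797) with the mitochondrial share as a covariate, where Gramd1a had -0.32 (adjusted p = 0.370). Gramd1a, which moves cholesterol from the plasma membrane to the endoplasmic reticulum, fell from 691 ± 34.6 to 508 ± 24.6 CPM, a log2 fold change of -0.44 (SE 0.05, edgeR adjusted p = 0.0118), and passed without any 1 mouse. Both genes also passed without the 2 libraries of mouse 5 (adjusted p = 0.0375 for Acly and 0.0112 for Gramd1a) and without the library of mouse 7 (0.0360 and 0.0182). Gramd1a was the 1 gene of 9 sterol trafficking genes to pass. None passed of 8 SREBP processing genes, 9 isoprenoid genes, 6 further LXR partners and targets, 2 oxysterol genes or 9 fatty acid oxidation genes. Proliferation genes lay lower beside these results: 13 of 14 were below 0, with a median of -0.61, and Mcm2 passed. Of 13 macrophage and dendritic markers 8 were below 0, with a median of -0.40; C1qb and Cd68 fell, and these 2, C1qa and C1qc did not overlap between naive and cancer mice. Of 10 epithelial markers tested 9 were above 0, with a median of 4.49, and none passed by edgeR (8 had an unadjusted p under 0.05). The size of these changes came largely from mouse 7. Krt20 was at 136 CPM there and at 1.54, 3.24 and 1.15 CPM in mice 5, 6 and 8. Epcam was at 160 CPM in mouse 7 and at 35.0, 45.4 and 56.8 CPM in mice 5, 6 and 8, against 56.0 to 78.0 CPM in naive mice. Krt8 and Fabp2 were higher in every cancer mouse than in any naive mouse. Muc2 went the other way, at 0 to 1.01 CPM in cancer mice against 1.39 to 8.17 CPM in naive mice. Il2ra, the interleukin 2 receptor chain of Treg, fell. The part of these sets in the differences was not tested.

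Within single gates, each with 4 naive and 4 cancer libraries, calls were made in TSLPR+ST2+ Treg only, and whether the cancer difference itself varies with a gate is tested further below. In TSLPR-ST2- Treg 0 of 33 genes passed (0.209% of all 14861 genes did, 0.148% lower and 0.0606% higher; 3 of the 33 had an unadjusted p under 0.05). In TSLPR-ST2+ Treg 0 passed by edgeR (0.202% of all genes did, 0.155% lower and 0.0471% higher; 5 under an unadjusted 0.05), and DESeq2 called Sc5d. In TSLPR+ST2- Treg 0 passed (0.0471% of all genes did, 0.0202% lower and 0.0269% higher; 2 under an unadjusted 0.05). In both ST2- gates DESeq2 called none of the 33 either. Taking these gates in that order, Fasn had log2 fold changes of -0.93, -0.71 and -0.49 (SE 0.29 each). Mvd had -0.46, -0.49 and -0.94 in the same order (SE 0.33 each).

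Sc5d showed its clearest separation in TSLPR-ST2+ Treg, where it was at 234, 190, 198 and 206 CPM in the naive and at 108, 130, 110 and 156 CPM in the cancer libraries. The 2 groups did not overlap there, and the log2 fold change was -0.72 (SE 0.20, edgeR adjusted p = 0.164). In TSLPR+ST2+ Treg the value for Sc5d was 0.05 (SE 0.20).

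In TSLPR+ST2+ Treg, Fasn and the SREBP-2 gene Srebf2 were lower in cancer. Of the 18 sterol enzymes 13 had log2 fold changes above 0 and none passed, and without the epithelial-rich library of mouse 7 the split was 7 above and 11 below. The 2 of 33 genes called, both lower, stood beside 4.16% of all genes (2.5% lower and 1.66% higher). Fasn was at 70.2, 60.6, 89.1 and 96.8 CPM in the naive and at 20.5, 28.1, 22.7 and 51.5 CPM in the cancer libraries. No cancer library reached the lowest naive one, and the log2 fold change was -1.36 (SE 0.29, edgeR adjusted p = 0.00851). Srebf2 was at 139, 156, 238 and 135 CPM in the naive and at 42.3, 76.5, 75.1 and 79.2 CPM in the cancer libraries. Here too the groups lay apart, with a log2 fold change of -1.29 (SE 0.31, edgeR adjusted p = 0.0160). Naive and cancer libraries also lay apart for Fasn in TSLPR-ST2- Treg and for Srebf2 in TSLPR+ST2- Treg.

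Both calls held without the 2 libraries of mouse 5 whose Crlf2 goes against their labels: Fasn then had -1.22 (edgeR adjusted p = 0.0287) and Srebf2 -1.12 (adjusted p = 0.0388). They held without the epithelial-rich library of mouse 7, at -1.25 (adjusted p = 0.0339) and -1.34 (adjusted p = 0.0343). Srebf2 was lost without mouse 3 (adjusted p = 0.0652) and Fasn without mouse 4 (adjusted p = 0.0512). Fitted on the 8 libraries of the gate alone, neither passed (edgeR adjusted p = 0.0984 for Fasn and 0.0782 for Srebf2). With the mitochondrial share as a covariate Fasn had -0.57 (adjusted p = 0.769) and Srebf2 turned to 0.05 (adjusted p = 0.994). The share was 0.618% to 1.24% in the naive and 1.43% to 3.23% in the cancer libraries of this gate.

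**Figure D3:**
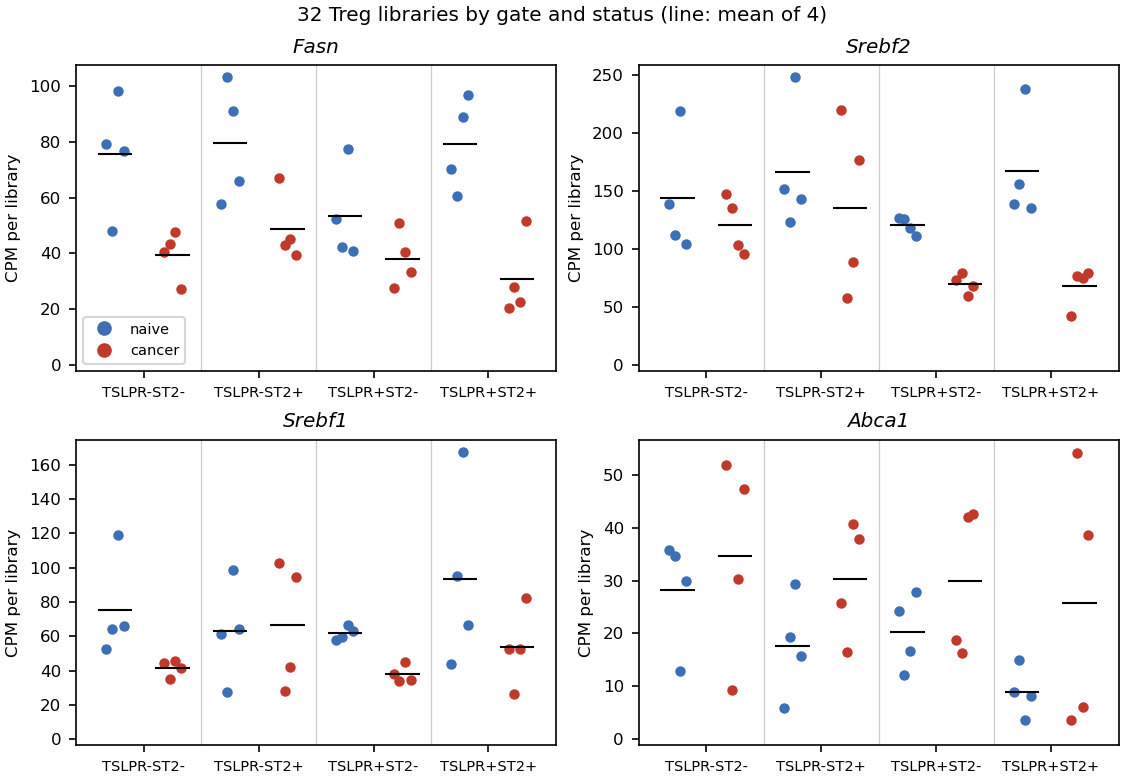
CPM in each of the 32 Treg libraries, by gate (x axis) and status (naive blue, cancer red), for Fasn, Srebf2, Srebf1 and Abca1; the lines are means of 4. Fasn and Srebf2 do not overlap between naive and cancer in TSLPR+ST2+ Treg. Nor does Fasn overlap in TSLPR-ST2- Treg, Srebf2 in TSLPR+ST2- Treg or Srebf1 in either ST2- gate. Abca1 overlaps in all 4 gates.

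Over the 18 sterol enzymes the median log2 fold change in TSLPR+ST2+ Treg was 0.40, against 0.05 over all genes. Without the library of mouse 7 it turned to -0.31, against 0.00 over all genes, and without the 2 libraries of mouse 5 it was 0.38, with 12 above 0. The direction of these enzymes in this gate thus rested on 1 library. Msmo1, the sterol methyl oxidase, had the smallest p of them: it was at 62.8, 53.7, 56.1 and 68.9 CPM in the naive and at 52.7, 98.0, 214 and 72.0 CPM in the cancer libraries. The value of 214 CPM is that of the epithelial-rich library of mouse 7, and cancer mouse 5 lay below all 4 naive libraries. Msmo1 had a log2 fold change of 0.85 (SE 0.32, edgeR adjusted p = 0.123), and 0.30 (adjusted p = 0.642) without that library. Hmgcs1 in that library was at 93.7 CPM, against 10.8 to 26.7 CPM in the other 3 cancer libraries. Mvd was likewise highest there, at 81.9 CPM. How far epithelial RNA set these 3 values was not tested. In this gate 6 of 9 epithelial markers tested were higher in cancer, and their summed level ran from 155 to 330 CPM in naive and from 192 to 13334 CPM in cancer libraries.

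Abca1 in TSLPR+ST2+ Treg was at 8.93, 15, 3.55 and 8.21 CPM in the naive and at 3.71, 54.2, 6.13 and 38.7 CPM in the cancer libraries. Cancer mice 6 and 8 were high, and mice 5 and 7 stayed in the naive range. The fitted log2 change was 1.53 (SE 0.64, edgeR adjusted p = 0.168). Abcg1 had -0.86 (SE 0.33, edgeR adjusted p = 0.131). Among neighbouring genes in this gate, Rxrb, which encodes a partner of LXR, fell by 1.52 on the log2 scale (SE 0.39, edgeR adjusted p = 0.0233) and Gramd1a fell by 0.60 (SE 0.16, adjusted p = 0.0363). Neither passed without the 2 libraries of mouse 5 (edgeR adjusted p = 0.0577 for Rxrb and 0.104 for Gramd1a) or without the library of mouse 7 (0.0832 and 0.126). Rxrb also missed the threshold without mouse 2, 4, 5 or 7 and with a random mouse term in limma (adjusted p = 0.0606), and Gramd1a without mouse 1, 2, 3, 4, 5 or 7.

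ST2+ Treg were compared with ST2- Treg over both statuses and both TSLPR gates, with 16 libraries on each side. The late sterol enzymes Ebp and Sc5d were slightly higher in ST2+ Treg, and Nr1h3 was much higher. These 3 of 33 genes passed, all higher, beside 6.04% of all genes (3.7% higher and 2.33% lower). Ebp ranged from 97.1 to 204 CPM with a median of 148 in ST2+ libraries and from 85.8 to 149 CPM with a median of 120 in ST2- libraries. The ranges overlapped, and 7 of 8 mice had the higher mean in ST2+ cells. Ebp differed by 0.31 on the log2 scale (SE 0.09, edgeR adjusted p = 0.0334).

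Sc5d ranged from 65.9 to 234 CPM (median 142) in ST2+ and from 81.9 to 151 CPM (median 115) in ST2- libraries. The naive TSLPR-ST2+ libraries all lay above the highest ST2- library, and the cancer libraries of that gate did not. Sc5d was higher in ST2+ cells in 7 of 8 mice, by a log2 fold change of 0.33 (SE 0.10, edgeR adjusted p = 0.0484). With the mouse as a block, which pairs the gates of an animal, Ebp and Sc5d missed the threshold (edgeR adjusted p = 0.0573 and 0.0772). Both also missed it without the epithelial-rich library of mouse 7 (0.0575 and 0.0687), where Acat2, the thiolase, was called lower. Without the 2 libraries of mouse 5 Sc5d missed it (0.0693) and Ebp passed (0.0335). The call of Ebp ended without mouse 1, 3, 4, 5, 7 or 8 (adjusted p up to 0.10) and that of Sc5d without any 1 mouse but mouse 8 (up to 0.170).

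Nr1h3, the LXR that macrophages express strongly, ranged from 5.24 to 90.4 CPM (median 24.6) in ST2+ libraries and from 0 to 36.7 CPM (median 3.90) in ST2- libraries. All 8 mice had more in ST2+ cells, and 4 of the 16 ST2- libraries, all of them TSLPR-ST2-, had no count. Nr1h3 differed by 2.43 on the log2 scale (SE 0.61, edgeR adjusted p = 0.0148), 2.75 (adjusted p = 0.00967) with the mouse as a block, and 2.08 (adjusted p = 0.0560) without mouse 8. It passed without the 2 libraries of mouse 5 (adjusted p = 0.0226) and without the library of mouse 7 (0.0119). Markers of macrophages and dendritic cells moved with it: 13 of 13 had log2 fold changes above 0 between ST2+ and ST2- cells, 9 of them past the threshold, with a median of 2.42; beside them 2 of 9 epithelial markers and, of 14 proliferation genes, Mki67 passed. The macrophage and dendritic markers' summed level in TSLPR-ST2- libraries was 36.7 to 758 CPM in naive and 89.3 to 285 CPM in cancer mice, and in TSLPR+ST2+ libraries 2424 to 4310 CPM and 2694 to 6319 CPM. Of their defining genes in TSLPR-ST2- libraries, C1qa was at 0 in 5 of 8 and Csf1r in 4 of 8. All libraries were sorted on CD4 and TCR, and the part of macrophage RNA in the level of Nr1h3 was not tested.

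**Figure D4:**
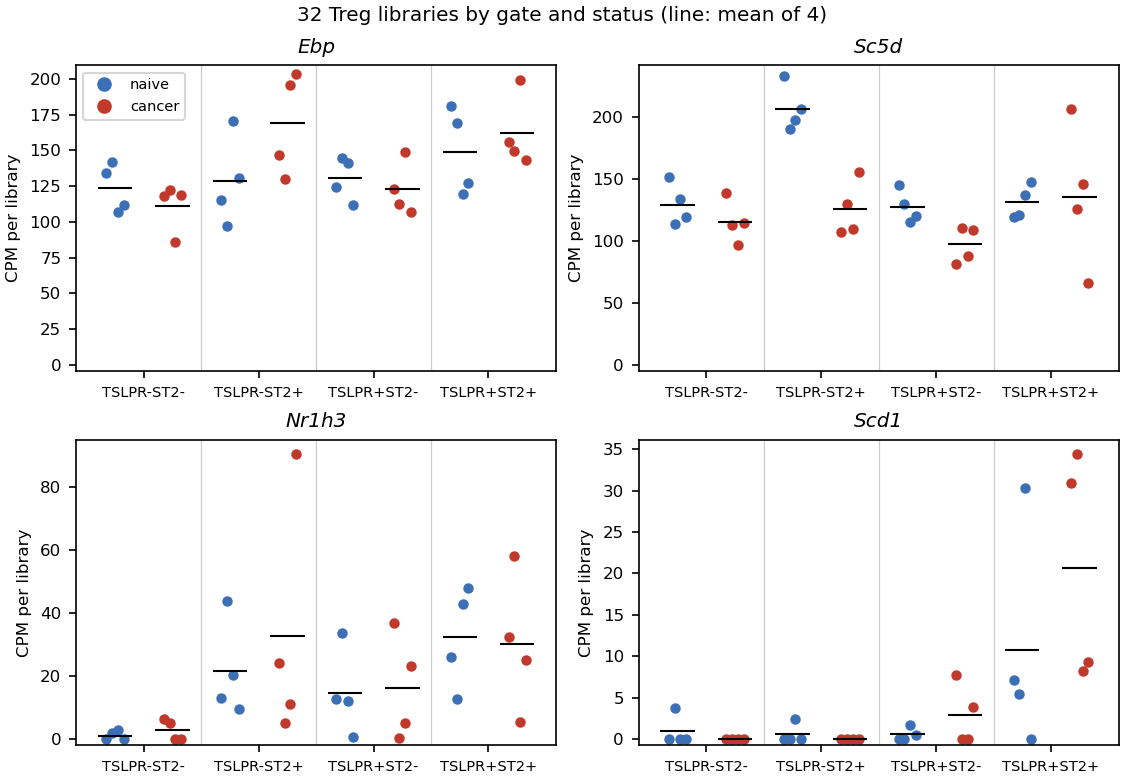
CPM in each of the 32 Treg libraries, by gate (x axis) and status (naive blue, cancer red), for Ebp, Sc5d, Nr1h3 and Scd1; the lines are means of 4. Nr1h3 is lowest in TSLPR-ST2- libraries, Scd1 is highest in TSLPR+ST2+ libraries and at 0 in 19 of 32, and Ebp and Sc5d overlap between all gates.

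The remaining genes did not separate the ST2 gates by this test. The 6 SREBP control genes all had log2 fold changes above 0, with a median of 0.29, and none passed. Insig1, itself a target of SREBP, had 0.64 (SE 0.24, edgeR adjusted p = 0.108) and Hmgcs1 0.64 (SE 0.26, edgeR adjusted p = 0.150). Fasn had 0.16 (SE 0.14) and Abca1 -0.57 (SE 0.31). In other lists, 1 of 10 further fatty acid genes rose, Hacd3, a dehydratase of fatty acid elongation, by 0.59 (SE 0.08, edgeR adjusted p = 2.25e-05). Of 9 oxidation genes Acadl and the carnitine carrier Slc25a20 rose, by 0.60 (SE 0.10) and 0.39 (SE 0.11). Smpdl3a was the 1 gene to pass in the list of 6 further LXR partners and targets, and rose by 0.44 (SE 0.06). Of 9 trafficking genes Soat1, which stores cholesterol as esters, rose by 0.39 (SE 0.12). With the mouse as a block Soat1 (edgeR adjusted p = 0.0755) and Slc25a20 (0.0659) missed the threshold, and Hacd3, Acadl and Smpdl3a passed. Leaving out 1 mouse ended the call of Soat1 for mouse 1, 3, 4, 5, 6 or 7 and that of Slc25a20 for mouse 1, 2, 3 or 7.

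TSLPR+ Treg were compared with TSLPR- Treg in the same way. The kinase gene Pmvk and the desaturase gene Scd1 were higher and Srebf2 lower; these 3 of 33 stood beside 13.4% of all genes (7.97% higher and 5.46% lower), a share above that of the 33. Srebf2 ranged from 42.3 to 238 CPM (median 95.5) in TSLPR+ and from 57.5 to 248 CPM (median 137) in TSLPR- libraries. It was lower in 7 of 8 mice, with a log2 fold change of -0.50 (SE 0.15, edgeR adjusted p = 0.0235). Without the 2 libraries of mouse 5 it had -0.37 (adjusted p = 0.0835), while Sc5d was then called lower, and with the mitochondrial share as a covariate -0.25 (adjusted p = 0.225). It also missed the threshold without mouse 1, 3, 5 or 8 (up to 0.140).

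Pmvk ranged from 16.5 to 48.2 CPM (median 26.5) in TSLPR+ and from 12.6 to 34.2 CPM (median 22.4) in TSLPR- libraries. In TSLPR-ST2- Treg of cancer mice it was at 12.6, 14.9, 13.8 and 19.6 CPM, the lowest group, while TSLPR-ST2+ Treg of the same mice had 33.1, 34.2, 29.6 and 32.9 CPM. The log2 fold change between TSLPR gates was 0.39 (SE 0.13, edgeR adjusted p = 0.0482), higher in 6 of 8 mice. With the mouse as a block the adjusted p was 0.0764, and it was 0.0798 without the 2 libraries of mouse 5. Without mouse 1, 2, 4, 5, 6 or 7 it was up to 0.206. Pmvk, Scd1 and Srebf2 all passed without the library of mouse 7.

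Scd1 had counts in 11 of 16 TSLPR+ libraries and in 2 of 16 TSLPR- libraries. In TSLPR+ST2+ Treg it was at 7.12, 5.47, 30.3 and 0 CPM in the naive and at 30.9, 34.4, 8.17 and 9.29 CPM in the cancer libraries, and in TSLPR+ST2- Treg at no more than 7.70 CPM. The mean was 8.72 ± 12 CPM over TSLPR+ and 0.385 ± 1.08 CPM over TSLPR- libraries (SD, n = 16), and all 8 mice had more in TSLPR+ cells (edgeR adjusted p = 0.00384). The fitted fold change rests on libraries at 0 and is not given. Scd1 passed without the 2 libraries of mouse 5 too (adjusted p = 0.00941). The library of mouse 7 with 13334 CPM of epithelial markers held 8.17 CPM. That was less than in those of cancer mice 5 and 6, with 548 and 241 CPM of these markers. Mice 5, 6 and 3 held the most Scd1 in TSLPR+ST2+ Treg. Their summed B and plasma cell markers there were at 417, 838 and 341 CPM. Mice 7, 1 and 4 had less Scd1 and sums of 145, 141 and 83.9 CPM. Mice 8 and 2 went the other way, with sums of 353 and 249 CPM at 9.29 and 5.47 CPM of Scd1. So did TSLPR+ST2- Treg of mouse 8, with 420 CPM at 3.88 CPM of Scd1. The part of these markers' cells in Scd1 was not tested.

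Several other sets moved with TSLPR. Proliferation genes were higher in TSLPR+ Treg, with 11 of 14 past the threshold, with a median log2 fold change of 1.37. So were 11 of 13 macrophage and dendritic markers, 5 of 6 B and plasma cell markers and 3 of 9 epithelial markers, and the part of any of these in the values of Pmvk, Scd1 and Srebf2 was not tested. Of 10 further fatty acid genes 2 fell and 2 rose: Acss2, which makes acetyl-CoA from acetate, fell by 0.76 on the log2 scale (SE 0.15, edgeR adjusted p = 0.000763) and was lower in 8 of 8 mice. Elovl5 fell by 0.42 (SE 0.09), while Hacd3 rose by 0.49 (SE 0.08) and Tecr by 0.22 (SE 0.06). Gpr183, the receptor of an oxysterol that guides lymphocytes, rose by 0.44 (SE 0.10, edgeR adjusted p = 0.00334) and was higher in 8 of 8 mice. Cyp27a1, which makes oxysterols, passed too, with counts in 4 of 16 TSLPR+ and 1 of 16 TSLPR- libraries. Gramd1a and Osbpl9 fell by 0.31 each (SE 0.08 and 0.07), of 9 trafficking genes, Smpdl3a rose by 0.28 (SE 0.06), and the oxidation genes Acadl and Hadha rose by 0.48 (SE 0.10) and 0.32 (SE 0.11). Of the SREBP processing genes Ubxn8 rose by 0.42 (SE 0.14) and Rnf145 fell by 0.37 (SE 0.11). With the mouse as a block Hadha (edgeR adjusted p = 0.0647), Ubxn8 (0.0575) and Cyp27a1 (0.140) missed the threshold, and the other genes of this paragraph named from the synthesis, oxysterol, trafficking, LXR, oxidation and SREBP lists passed. Leaving out 1 mouse ended the call of Ubxn8 for mouse 1, 2, 3, 5, 6 or 7, of Hadha for 2, 3, 4, 6 or 7, of Rnf145 for 1, 2, 5 or 7, of Cyp27a1 for 1, 3, 6 or 7, of Tecr for 1 or 8 and of Gramd1a for 1 or 5. None of the 9 isoprenoid genes passed for TSLPR, for ST2 or for cancer.

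Whether the cancer difference itself varied with a gate was tested by interaction terms. None of the 33 genes passed for ST2 or for TSLPR, by edgeR or by DESeq2, and edgeR called 0% of all genes in both; 3 and 2 of the 33 had an unadjusted p under 0.05. For ST2 the smallest p was that of Pmvk, with a log2 difference of 0.89 between the 2 ST2 effects (SE 0.27, edgeR adjusted p = 0.479). For TSLPR the Srebf2 difference was -0.76 (SE 0.30, edgeR adjusted p = 0.543), and that of Fasn was -0.10 (SE 0.29). The lower Fasn and Srebf2 of TSLPR+ST2+ Treg in cancer were therefore not shown to differ from the other gates.

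Srebf2 and Nr1h3 were set beside a measure of the library itself, as a description. Srebf2 was above 200 CPM in 4 libraries, namely 3 of naive mouse 3 (219, 248 and 238 CPM) and the library of cancer mouse 5 labelled TSLPR-ST2+ (220 CPM), whose mitochondrial shares were 0.800%, 0.616%, 0.618% and 0.958%. It was at 42.3, 76.5 and 75.1 CPM in the 3 libraries with a share above 2%. Other libraries did not follow this order: in TSLPR+ST2+ Treg, naive mice 4 and 2 had 135 and 156 CPM at 0.742% and 0.861%, and cancer mouse 8 had 79.2 CPM at 1.43%. For Nr1h3, the library with the highest macrophage and dendritic sum, 6319 CPM in TSLPR+ST2+ Treg of cancer mouse 7, held 5.45 CPM, and mouse 7 was the lowest of the 8 mice with gates summed, at 5.54 CPM. The markers of this sum differed within mouse 7. With gates summed it had the lowest Lyz2 of the 8 mice, at 154 CPM. It had the highest H2-Aa, H2-Ab1 and Cd74, at 376, 496 and 819 CPM. In mouse 7 C1qb and Cd68, at 53.8 and 22.0 CPM, were the highest of the cancer mice and below every naive mouse. Adgre1, at 8.57 CPM, was second only to mouse 8. The macrophage markers of this mouse thus did not share 1 order. These are gate sums and not values of the TSLPR+ST2+ library, and the part of macrophage RNA was not tested. Naive mouse 3 was the highest of the 8 mice for 11 of the 33 genes and the lowest for 7.

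**Figure D5:**
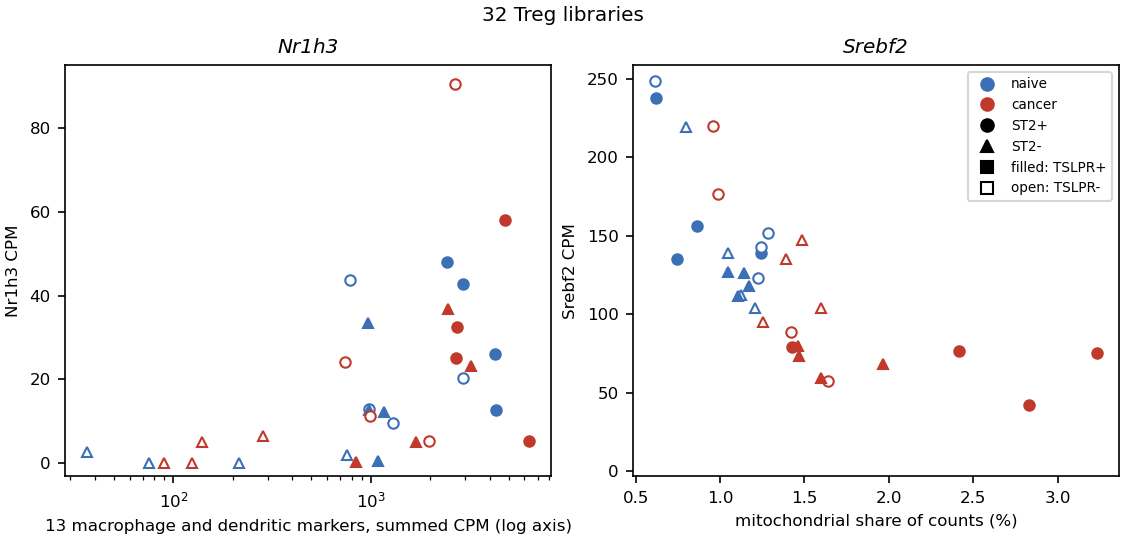
Left, Nr1h3 against the summed level of 13 macrophage and dendritic markers (log axis); right, Srebf2 against the mitochondrial share of counts, for the 32 Treg libraries (naive blue, cancer red, ST2+ circles, ST2- triangles, TSLPR+ filled, TSLPR- open). Nr1h3 stays below 7 CPM in all TSLPR-ST2- libraries, and Srebf2 is highest at shares under 1%.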

How the data were processed

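The files hold 1 table of raw gene counts, deposited by the authors, for 33 libraries on GRCm38; the tools listed in the submitters' processing notes are SAMtools 1.2, FastQC 0.11.3, HTSeq 0.4.1 and Picard 1.134. No source used here states the aligner, annotation release, strand or treatment of multiply mapped reads. The 33 genes, the other lists and the rule for named genes (values in every sample for genes that passed, others where their level or change was the highest or lowest of their role) were chosen with earlier results of these data known; further genes of the 33 named outside that rule were picked after their values were seen.

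Counts were tested with edgeR 4.0.16 under R 4.3.3, by its robust quasi-likelihood test with TMM scaling, filterByExpr (minimum count 10, minimum total 15) and Benjamini-Hochberg adjustment over all genes at 0.05. Status was tested on sums of the 4 gates per mouse (15338 genes) and, within gates, in a group-means model of 32 libraries (14861 genes), which also gave the ST2, TSLPR and interaction contrasts. SE is the log2 fold change divided by the square root of F. CPM of genes use TMM-scaled totals, while summed levels of cell type markers use raw library totals. The naive T cell values were scaled together with all 33 libraries, and the Treg values with the 32 Treg libraries alone. Exon lengths are those of GENCODE M21. The scripts were tested on simulated counts.

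The gates of 1 mouse come from the same animal, per the labels, so the mouse number pairs libraries. Deviations from group means correlated by 0.00993 on average within a mouse (48 pairs, 3 over 0.1) and by -0.00331 between mice of 1 status (144 pairs). Alternatives were RLE scaling, no filter, DESeq2 1.42.0, leaving out each mouse, the mouse as a block (fixed, or random with limma 3.58.1), thinned counts, the mitochondrial share as a covariate, 1 gate alone and the mean of gate contrasts. A further one leaves out 2 libraries of mouse 5; another, leaving out the TSLPR+ST2+ library of mouse 7, was chosen after seeing the data.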

Additional observations from a re-analysis of the deposited data

Results flagged for a closer look

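The 7 values given here lie far from the other 3 of their group of 4, by Dixon's criterion. Of 100 groups looked at, chance gives about 1 in 20, or 5. Mvd in TSLPR+ST2+ Treg of cancer mouse 7 was at 81.9 CPM, against 34.6 to 40.6 CPM in the other 3 libraries; this is the library with 13334 CPM of epithelial markers. Srebf2 in the library of cancer mouse 5 labelled TSLPR+ST2+ was at 42.3 CPM, against 75.1 to 79.2 CPM, and its Crlf2 goes against the order of the gates. Srebf2 in naive mouse 3, gates summed, was at 213 CPM, against 126 to 140 CPM. Ebp in TSLPR-ST2- Treg of cancer mouse 7 was at 85.8 CPM, against 118 to 122 CPM, and Ebp in naive mouse 4, gates summed, was at 122 CPM, against 137 to 139 CPM. Scd1 was at 3.75 CPM in TSLPR-ST2- Treg of naive mouse 2 and at 2.41 CPM in TSLPR-ST2+ Treg of naive mouse 3, with the other 3 naive libraries of each gate at 0.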

How the results depend on the processing

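Counts of the 33 genes called changed as follows. Over whole mice, with 3 called, DESeq2 called 5 and the mitochondrial covariate left 0; leaving out 1 mouse gave 0 to 2. The mean of the gate contrasts called 4, with Abcg1 and Srebf2 in place of Sc5d. In TSLPR-ST2+ Treg, with 0 called, DESeq2 called 1 and leaving out 1 mouse gave 0 to 1. In TSLPR+ST2+ Treg, with 2 called, the mitochondrial covariate and the fit on the gate's 8 libraries each left 0, and leaving out 1 mouse gave 1 to 2; Srebf2 and Rxrb reversed with the covariate (log2 fold changes 0.051 and 0.27). For ST2, with 3 called, no filter left 1, DESeq2 called 5, the mouse as a fixed replicate block left 1 (Nr1h3), and leaving out 1 mouse gave 1 to 2, with Acat2 called lower without mouse 7 or its TSLPR+ST2+ library, and Msmo1 higher without mouse 5. For TSLPR, with 3 called, the mitochondrial covariate left 1 (Scd1), no filter left 2, thinned counts and DESeq2 called 4 each (Nr1h3 added), dropping the 2 libraries of mouse 5 left Scd1 and Sc5d, leaving out 1 mouse gave 1 to 4 (with Sqle without mouse 7, and Fasn and Insig2 without mouse 8), and the block called 3, with Nr1h3 in place of Pmvk. The cause of these changes was not tested. Beside the losses of neighbouring genes given in the report, the block and the random mouse term (limma) changed no other call among the 33 genes and the neighbouring genes they were run on. RLE scaling changed none of these counts, and both interactions and the other 2 gates gave 0 under each alternative run. Scd1 for TSLPR passed under all 16 alternatives and Gramd1a over whole mice under 15 of 16. At 200 cells a library, genes of a few CPM such as Fdps, Idi1 and Scd1 rest on few molecules.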
